A study of Homo sapiens with 10 samples.

Results

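The step from 2 h to 4 h of nutlin-3a treatment was examined in BJ cells at the level of transcripts (RNA-Seq) and of ribosome occupancy (Ribo-Seq). BJ is a line of primary human fibroblasts that hTERT expression has made immortal, grown in medium with fetal calf serum. Cells treated for 4 h were set against cells treated for 2 h, so that both sides of every comparison carried the drug and the untreated library did not enter. The genes described are the 6670, of 11258 listed for both assays, that had at least 5 FPKM (fragments per kilobase of transcript, scaled to library depth) at 2 h or 4 h in RNA-Seq and again in Ribo-Seq. The comparison used 4 of the 10 libraries of the series, namely Nutlin.2h and Nutlin.4h of each assay. Each time and assay had 1 library, from a culture of a single cell line, so no difference has a replicate check, no p-value was computed, and errors are counting errors only.

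Nutlin-3a occupies the pocket of MDM2 that binds p53. MDM2 is the ubiquitin ligase that keeps p53 protein low, and it is itself a p53 target, which closes a negative feedback loop. Active p53 switches on genes for cell-cycle arrest, cell death, DNA repair and metabolism. Its target p21, the product of CDKN1A, inhibits cyclin-dependent kinases, leaving the RB family proteins bound to E2F factors and the genes of DNA replication turned down. Ribo-Seq sequences the mRNA fragments that ribosomes protect, and its FPKM value is called ribosome density here. Translational efficiency (TE) is log2 of density over RNA, and its change is the density change minus the RNA change.

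A tested gene held a median of 1576 reads at 2 h and 1382 at 4 h in RNA-Seq, and of 562 and 732 reads in Ribo-Seq. Counting alone gave log2 changes a median SE of 0.053 in RNA, 0.082 in density and 0.099 in TE, and these SEs take no account of how cultures or library preparations vary. All 9 fibroblast markers checked, among them COL1A1, THY1 and PDGFRB, were above 5 FPKM in RNA, with a summed level of 8147 FPKM at 2 h and 8268 at 4 h. Markers of endothelium, leukocytes and melanocytes stayed below 1 FPKM. KRT8, a keratin, was the only one of 2 epithelial markers listed that passed 5 FPKM, at 11.8 and 10.6 FPKM, whereas CDH1 was at 0.023 and 0.025. In such bulk libraries, fewer cells of a type and less RNA per cell cannot be told apart.

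Values under 1 FPKM were set to 1, and a gene is said to rise or fall where it changed at least 2-fold. In RNA 50 genes rose (0.75% of the tested genes) and 66 fell (0.99%). In density 126 rose (1.89%) and 105 fell (1.57%), and in TE 47 rose (0.705%) and 35 fell (0.525%). The median log2 change was -0.03 in RNA, 0.09 in density and 0.13 in TE, and the spread over genes was wider in density (SD 0.46) than in RNA (SD 0.31). All 50 genes that rose in RNA also had a higher density at 4 h, and 42 of them passed 2-fold there too. All 66 that fell in RNA had a lower density, and 34 passed 2-fold. The level filter favours such agreement where a gene reached 5 FPKM in Ribo-Seq at only 1 time. In density, 36 genes that rose and 46 that fell were under 5 FPKM at their lower time. Of the genes that moved in density, 46 rose and 44 fell with a log2 RNA change of less than 0.5 in size. Across the 6670 genes, which are not independent replicates, Pearson's r between RNA and density changes was 0.61 and Spearman's rho 0.46.

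**Figure D1:**
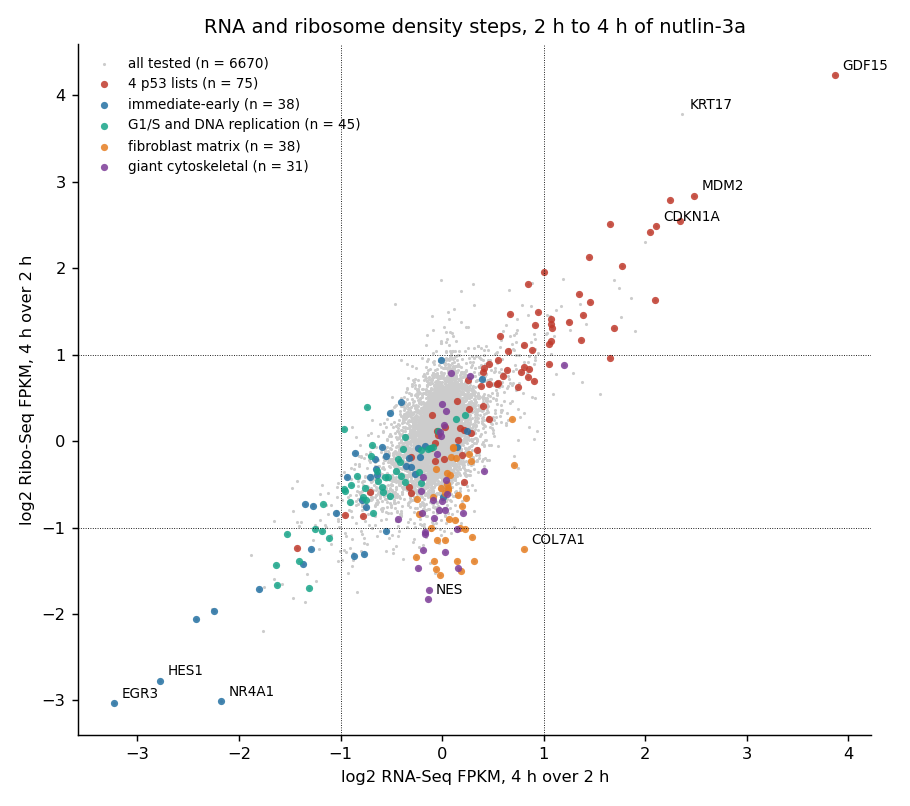
Each point is a tested gene, with its log2 change from 2 h to 4 h in RNA-Seq (x axis) and Ribo-Seq (y axis). Colours mark gene lists and dotted lines mark 2-fold changes. p53 targets lie toward the upper right with GDF15 at 3.87 and 4.23, immediate-early and replication genes toward the lower left, and matrix and giant cytoskeletal genes below the cloud with little RNA change.

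The rise in RNA was led by p53 targets. Of 98 genes on 4 lists of p53 targets, 90 were listed in either assay and 75 were tested. Of these 75, 24 rose in RNA, 30 rose in density and none passed 2-fold in TE. Their median change was 0.64 in RNA and 0.83 in density, beside -0.03 and 0.09 over all tested genes. Of the other 26 genes that rose, 6 were on another list and 20 on none.

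Among the 17 tested genes of arrest and feedback, 6 rose and 1 fell in RNA, with a median of 0.78. MDM2 went from 36.3 to 203 FPKM in RNA and from 8.25 to 59.0 in density, a log2 change of 2.48 ± 0.019 (counting SE) and 2.84 ± 0.057. Both values were thus several times higher at 4 h. CDKN1A went from 212 to 915 FPKM in RNA and from 488 to 2729 in density, and had the highest RNA level of the 50 genes that rose in RNA, at both times. BTG2, an antiproliferative partner of the CCR4-NOT deadenylase, went from 12.6 to 64.1 FPKM in RNA and from 10.1 to 59.3 in density. E2F7, a repressor of E2F target genes, went from 11.003 to 30.2 FPKM, and ZMAT3, a zinc finger RNA-binding protein, from 14.2 to 30.1 FPKM in RNA. Both also passed 2-fold in density. CCNG1 (cyclin G1) and PPM1D, the WIP1 phosphatase that dampens p53 signalling, stayed short of 2-fold in RNA with log2 changes of 0.91 and 0.80, and passed it in density with 1.35 and 1.11. The one member that fell was GADD45B, a stress-inducible gene, from 90.9 to 33.8 FPKM in RNA and from 120 to 50.6 in density. Its relative GADD45A had a log2 change of -0.05 in RNA.

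**Figure D2:**
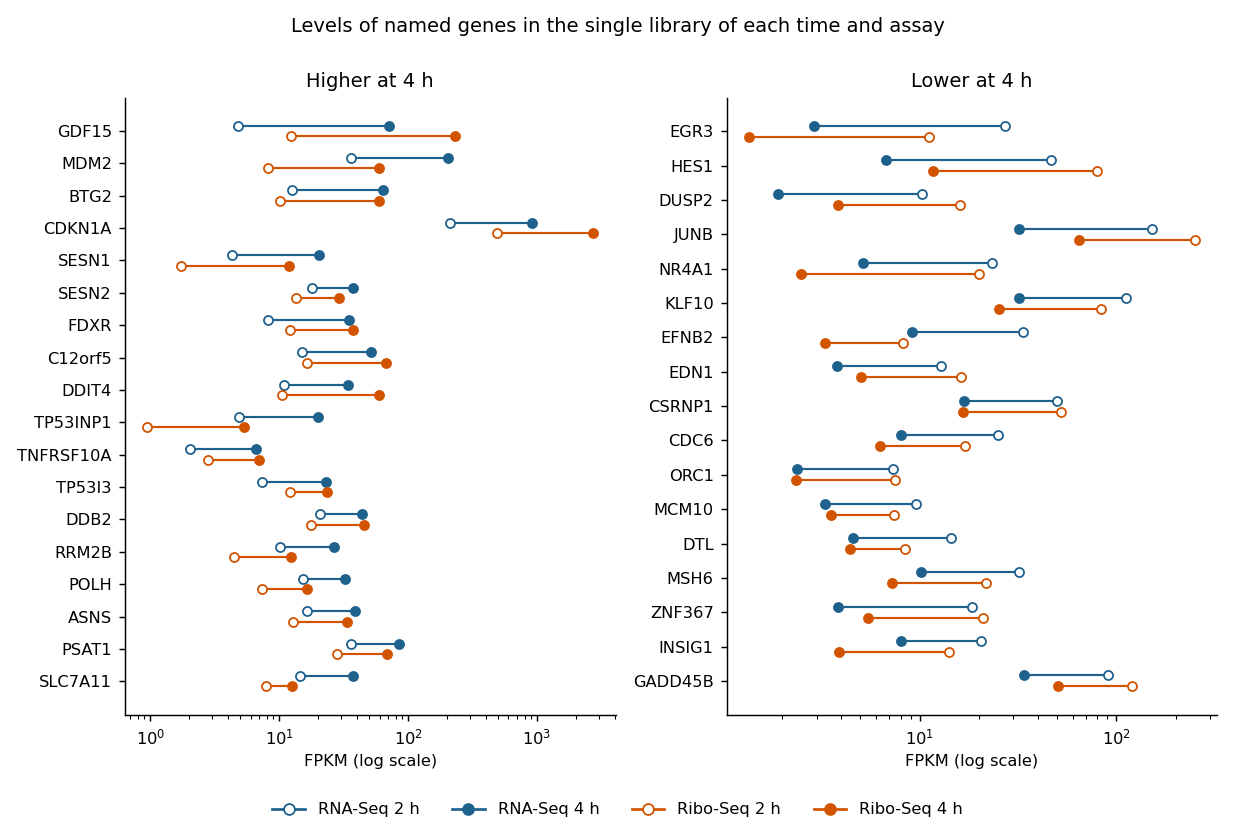
RNA-Seq (blue) and Ribo-Seq (orange) FPKM on a log axis for named genes, with open circles for the 2 h library and filled circles for the 4 h library. CDKN1A is at the right of the left panel, reaching 2729 FPKM in Ribo-Seq, and in both panels the blue and orange bars of a gene run the same way.

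Death and survival genes followed, with 8 of 22 tested members higher in RNA, 10 higher in density and none lower. TP53INP1, which promotes p53-dependent death and autophagy, went from 4.86 to 20.1 FPKM in RNA and from 0.942 to 5.35 in density. The TRAIL receptors differed in level. TNFRSF10B went from 42.8 to 109 FPKM and TNFRSF10A from 2.04 to 6.61 in RNA, whereas the decoy receptor TNFRSF10D had a log2 change of 0.18. TP53I3, an oxidoreductase, rose in RNA from 7.34 to 23.0 FPKM, and its density change of 0.96 fell just short of 2-fold. BBC3, which encodes the BH3-only protein PUMA, was at the threshold in RNA, from 9.42 to 18.9 FPKM, and rose from 4.85 to 18.8 in density. BAK1, a pore-forming BCL2 family member, went from 13.8 to 26.6 FPKM in RNA and from 12.7 to 35.8 in density, so that only its density passed 2-fold. TRIAP1, a small inhibitor of apoptosis, had a density change of 2.12 ± 0.11. AIFM2, SIVA1 and PERP, which also act in cell death, had RNA changes of -0.11, -0.10 and 0.02.

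Of the 8 repair genes tested, RRM2B, DDB2 and POLH rose in both assays. RRM2B, the p53-inducible ribonucleotide reductase subunit, went from 10.2 to 26.5 FPKM in RNA. DDB2, which recognises ultraviolet lesions, went from 20.8 to 43.7 FPKM, and POLH, a translesion polymerase, from 15.4 to 32.3 FPKM. The damage sensor XPC had a log2 change of 0.80 and the sliding clamp PCNA one of 0.28.

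In the list of metabolism, growth control and secretion 7 of 28 rose in RNA and 9 in density. GDF15, a secreted member of the TGF-beta superfamily, made the largest step of all tested genes in both assays. It went from 4.82 to 70.7 FPKM in RNA and from 12.3 to 231 in density, log2 changes of 3.87 ± 0.12 and 4.23 ± 0.11. The 6 h libraries had 13.1 FPKM in RNA and 48.8 in density, so the 4 h value was the highest of these 3 times. DDIT4, an inhibitor of mTOR complex 1 also known as REDD1, was also highest at 4 h, with 10.8, 34.2 and 10.1 FPKM in RNA at 2, 4 and 6 h. Sestrins, which also restrain mTOR complex 1, both rose. SESN1 went from 4.33 to 20.4 FPKM in RNA and from 1.73 to 11.9 in density, and SESN2 from 18.0 to 37.5 and from 13.4 to 29.1. At 6 h SESN1 was at 24.2 FPKM in RNA and SESN2 at 21.1, so that only SESN1 was as high as at 4 h. FDXR, a mitochondrial reductase that serves iron-sulphur cluster and steroid synthesis, went from 8.19 to 35.1 FPKM, and C12orf5, which encodes the glycolytic regulator TIGAR, from 15.1 to 51.2. HBEGF, a ligand of the EGF receptor, went the other way, from 22.0 to 11.4 FPKM, just short of 2-fold.

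Promoter windows of RefSeq (GRCh38.p14), from 250 bases before to 50 after a start, were searched on both strands for the p53 consensus of 2 half-sites with 0 to 13 bases between them, allowing 2 mismatches in all and none in the C and G of the half-site cores. Windows were found for 39 of the 50 genes that rose in RNA, and 4 of them held a match, as did 3 of the 54 with a window among the genes that fell. Such matches stood in 2.93% of all 35116 windows and in 188 of the 5533 tested genes with a window. They are shown because they belong to genes whose RNA rose. Capitals mark the half-sites, and coordinates are given with the strand of the gene.

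MDM2, chr12:68808923-68808942, plus strand: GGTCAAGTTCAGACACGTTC
FDXR, chr17:74872996-74873025, minus strand: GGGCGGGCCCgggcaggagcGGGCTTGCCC
DDB2, chr11:47214979-47214999, plus strand: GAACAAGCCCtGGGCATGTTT
ACTA2, chr10:88991309-88991328, minus strand: TGGCTTGTCAGGGCTTGTCC

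The DDB2 match had 0 mismatches and 1 base between its half-sites, and the other 3 had 2 mismatches each. Those of MDM2 and FDXR lay before the start and those of DDB2 and ACTA2 after it, in the transcribed part. ACTA2, smooth muscle actin, went from 21.0 to 48.3 FPKM in RNA and from 29.4 to 54.2 in density. No match was found for CDKN1A, BTG2, SESN1 or GDF15, which says only that these letters were not found in the windows searched.

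Genes outside the p53 lists also rose in RNA. KRT17, a keratin with close paralogs, had 0.560 FPKM at 2 h and 5.16 at 4 h in RNA and 0.719 and 13.7 in density. Its changes rest on a 2 h value set to the floor, and the counting SE of its RNA change was 0.32. TXNIP, which binds thioredoxin and limits glucose uptake, went from 3.69 to 13.8 FPKM. CYFIP2, a subunit of an actin-regulating complex, went from 2.90 to 10.5 FPKM, and the membrane ligand EFNB1 from 1.87 to 6.25. The ligand EFNB2 of the same ephrin-B family fell, from 33.6 to 9.14 FPKM in RNA and from 8.23 to 3.31 in density.

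A second set of risers came from a list of genes known from the response to ATF4, a transcription factor of amino acid shortage and other stresses. Whether ATF4 drove their rise was not tested. Of 41 tested members, 5 rose in RNA and 8 in density, none fell, and the median was 0.39 in RNA and 0.54 in density. Of the enzymes, ASNS, asparagine synthetase, went from 16.3 to 38.5 FPKM in RNA and from 12.7 to 33.3 in density. PSAT1, of serine synthesis, went from 35.8 to 85.3 and from 28.1 to 68.4. Of the transporters, SLC7A11, the cystine carrier, went from 14.5 to 37.6 FPKM in RNA and SLC7A5, of large neutral amino acids, from 86.4 to 180. The pseudokinase TRIB3, a feedback inhibitor of ATF4, went from 8.13 to 16.6. ATF4 itself was at 194 and 199 FPKM in RNA, with a density of 97.4 and 129. DDIT3, the factor CHOP, had a log2 change of 0.38 in RNA and passed 2-fold in density, from 9.80 to 20.6. CEBPG, a partner of ATF4, had nearly the same RNA level, at 12.7 and 13.2 FPKM, while its density went from 5.04 to 11.4, a TE change of 1.13 ± 0.13. PSAT1 was back at 41.3 FPKM in RNA at 6 h, against 35.8 at 2 h.

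The genes that fell in RNA were led by immediate-early genes, which growth factors and other stimuli switch on within minutes and whose mRNAs are short-lived. Of 38 tested members 11 fell in RNA, 11 fell in density and none rose in either, and the median was -0.66 in RNA. EGR3, a zinc finger transcription factor, went from 27.2 to 2.91 FPKM in RNA and from 11.1 to 1.36 in density, a log2 change of -3.23 ± 0.086 and -3.03 ± 0.17. The size depended on the floor: at 5 FPKM the density change of EGR3 was -1.15. HES1, a repressor downstream of Notch, went from 46.4 to 6.77 FPKM in RNA and from 80.2 to 11.7 in density. NR4A1, an orphan nuclear receptor, went from 23.4 to 5.16 in RNA and from 20.1 to 2.50 in density. The AP-1 subunits differed. JUNB went from 151 to 32.0 FPKM in RNA, JUN from 83.3 to 67.2, and FOS was at 1.55 and 1.65 FPKM, below the level filter. ATF3, also below it, was at 4.78 and 4.59. EGR1 went from 122 to 67.0 FPKM in RNA, short of 2-fold, and from 111 to 43.9 in density, past it. The phosphatases DUSP2 and DUSP1, which switch off MAP kinases, fell from 10.3 to 1.92 and from 136 to 52.6 FPKM in RNA. KLF10, an early TGF-beta response gene, fell from 112 to 32.0. MYC, the growth-promoting factor, had a log2 change of -0.75. PHLDA1 was the highest of the list at 0.39, from 52.5 to 69.0 FPKM.

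Genes of DNA replication and of the G1/S transition were lower almost throughout. Of 45 tested, 43 had a negative RNA change, 9 of them past 2-fold, with a median of -0.64, beside -0.03 over all tested genes. In density 39 were negative, 8 past 2-fold, with a median of -0.46. Several of the genes that fell act in licensing of replication origins. CDC6, which loads the replicative helicase, went from 24.96 to 8.01 FPKM in RNA and from 17.1 to 6.33 in density. ORC1, of the origin recognition complex, went from 7.35 to 2.39 FPKM in RNA, and CDT1, the partner of CDC6, from 15.2 to 6.12 in RNA and from 27.2 to 8.38 in density. MCM10, a helicase cofactor, went from 9.55 to 3.31 in RNA. The helicase subunits MCM2 to MCM7 themselves had RNA changes between -0.90 for MCM2 and -0.42 for MCM7, so none of them passed 2-fold. CHAF1A, a histone chaperone of the fork, went from 23.1 to 8.69 FPKM, and UHRF1, which maintains DNA methylation, from 71.0 to 29.9. Outside this list, DTL, a substrate receptor that marks CDT1 for destruction, went from 14.5 to 4.58 FPKM in RNA, the mismatch repair gene MSH6 from 32.0 to 10.2, and ZNF367, a zinc finger gene, from 18.4 to 3.84. At the upper end, TYMS, thymidylate synthase, and CCND1, cyclin D1, had log2 changes of 0.23 and 0.14. E2F1 was an exception between assays, with 25.7 and 15.4 FPKM in RNA and 5.42 and 7.13 in density, so that its TE rose by 1.14 ± 0.16. POLE2, a polymerase epsilon subunit, also rose in TE, by 1.10 ± 0.23.

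Genes of G2 and mitosis moved less between these times. Of 69 tested, none passed 2-fold in RNA and 3 fell in density, with a median of -0.28 in RNA and -0.30 in density. The direction was shared all the same, with 66 of 69 negative in RNA, where the median over all tested genes was -0.03. KIFC1, a minus-end kinesin, had the lowest RNA change of the list, from 44.2 to 25.9 FPKM in RNA and from 51.1 to 22.6 in density. CCNB1, cyclin B1, went from 83.6 to 72.2 FPKM and was at 17.7 at 6 h. The list median stood at 40.1, 30.2 and 6.21 FPKM in RNA at 2, 4 and 6 h. That of the replication list stood at 21.0, 13.9 and 4.56. In these single libraries the larger part of both declines thus lay after 4 h. The labels do not say whether these libraries shared a sequencing run. The 3 members that fell in density were KIFC1, ESPL1 (separase) and MKI67 (Ki-67), with changes of -1.18, -1.27 and -1.12.

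**Figure D3:**
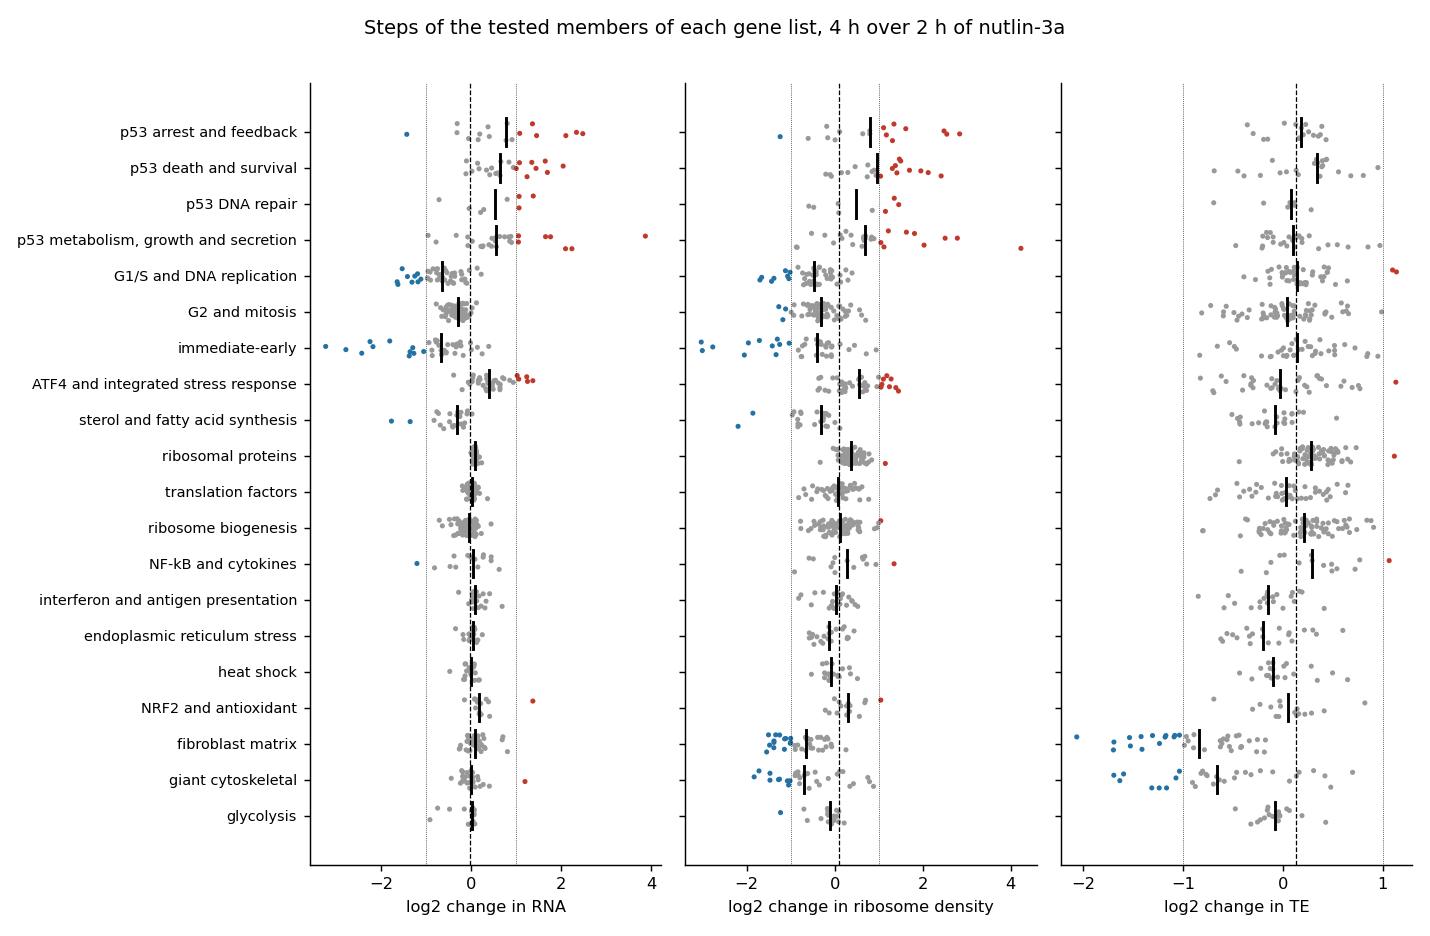
Log2 change from 2 h to 4 h of every tested member of 20 gene lists in RNA, density and TE, with black bars for list medians, dashed lines for the median of all tested genes and dotted lines for 2-fold. Red points rose and blue points fell at least 2-fold; the p53 lists lie to the right in RNA and density, the immediate-early and replication lists to the left, and the matrix and giant cytoskeletal lists to the left in density and TE only.

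Motifs were then counted in the promoter windows of the 2 cell-cycle lists. TTTCCCGC or TTTGGCGC, letters bound by E2F factors, stood on either strand in 17 of 37 replication genes with a window and in 3 of 58 of the G2 and mitosis genes, beside 2.27% of all windows and 5.12% of the tested genes with a window. TTTGAA or its complement, the core of the cell cycle homology region (CHR), stood in 2 of 37 and 38 of 58, beside 15.2% of all windows and 12.8% of the tested genes. CCAAT or its complement stood in 62.2% of the replication genes and 74.1% of the G2 and mitosis genes, beside 34.6% of all windows, 43.8% of the tested genes with a window and 21 of the 39 with a window that rose in RNA. None of these motifs contains another. The E2F letters were added to the search after the values had been seen. Among the 66 genes that fell in RNA 54 had a window, and 9 of them held the E2F letters, as did 4 of the 39 among the genes that rose. At least 5 of the 9 that fell had the motif wholly before the start. Sequences to show were drawn from part of the genome only, and 5 were found there. Windows of 60 bases of these 5 genes (GRCh38.p14, strand of the gene) are shown because their RNA fell at least 2-fold, with the motif in capitals.

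ZNF367, chr9:96418371-96418430, minus strand: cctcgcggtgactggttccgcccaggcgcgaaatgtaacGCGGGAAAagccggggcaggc
DTL, chr1:212035688-212035747, plus strand: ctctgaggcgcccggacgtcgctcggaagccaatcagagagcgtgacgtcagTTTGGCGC
CDCA7, chr2:173354781-173354840, plus strand: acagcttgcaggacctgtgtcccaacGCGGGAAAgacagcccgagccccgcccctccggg
CDT1, chr16:88803728-88803787, plus strand: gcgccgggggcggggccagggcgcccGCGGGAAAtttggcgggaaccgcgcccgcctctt
UHRF1, chr19:4909441-4909500, plus strand: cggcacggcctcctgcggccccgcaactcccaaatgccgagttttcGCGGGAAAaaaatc

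For contrast, 3 genes of the G2 and mitosis list with a CHR core before the start are shown the same way. They had the lowest RNA changes of such genes in the same part of the genome, and TTTGAA is in capitals. Their RNA changes were -0.67 for HJURP, which deposits the centromeric histone, -0.65 for the midzone kinesin KIF23 and -0.57 for the condensin subunit NCAPG.

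HJURP, chr2:233854614-233854673, minus strand: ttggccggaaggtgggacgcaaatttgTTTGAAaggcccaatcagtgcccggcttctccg
KIF23, chr15:69414267-69414326, plus strand: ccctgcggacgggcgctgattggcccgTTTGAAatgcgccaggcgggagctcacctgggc
NCAPG, chr4:17810917-17810976, plus strand: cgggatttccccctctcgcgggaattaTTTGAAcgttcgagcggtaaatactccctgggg

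Sterol and fatty acid synthesis genes, which SREBP factors control, were lower as a group. Of 25 tested, 24 were negative in RNA, and 2 fell, INSIG1 among them. The list median was -0.31, beside -0.03 over all tested genes. INSIG1, the sterol sensor that holds SREBP back, went from 20.6 to 8.06 FPKM in RNA and from 14.2 to 3.91 in density. The enzymes of the pathway stayed short of 2-fold, such as HMGCS1, at 11.7 and 6.92 FPKM in RNA. At 6 h INSIG1 was at 21.0 FPKM and HMGCS1 at 18.0, so both were back at or above their 2 h level.

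Other regulators that fell in RNA were on lists as single members or on none. NFKBIA, the inhibitor of NF-kB, went from 67.9 to 29.5 FPKM in RNA and was the single faller among 15 tested NF-kB and cytokine genes, while RELB, an NF-kB subunit, rose in density from 5.53 to 14.1 and the cytokine IL11 in TE by 1.06. Of 16 NRF2 and antioxidant genes, SLC7A11 rose in RNA and HMOX1, heme oxygenase, in density, from 79.3 to 164. EDN1, the vasoconstrictor endothelin-1, went from 12.9 to 3.81 FPKM. CSRNP1, an AXIN1-induced nuclear protein, went from 50.1 to 16.8. The lists for interferon response and antigen presentation (22 tested), endoplasmic reticulum stress (21), heat shock (19) and translation factors (45) had no member past 2-fold in RNA, density or TE. Over all tested genes 0.75% rose and 0.99% fell in RNA, and 1.89% and 1.57% in density. In TE the shares were 0.705% and 0.525%, so lists of this size may hold no such member at these shares. GAPDH, the glycolytic enzyme, was at 2239 and 2284 FPKM in RNA and 2838 and 2814 in density. HK2, hexokinase 2, was the only one of 18 glycolysis genes past 2-fold, in density, from 14.5 to 6.19.

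A set of long transcripts fell in density with little or no fall in RNA. In the list of fibroblast matrix genes, collagens and other secreted structural proteins, 14 of 38 tested members fell in density and none in RNA, with medians of -0.66 and 0.08. In TE 14 fell, and all 38 were negative. In the list of giant cytoskeletal and other very large proteins, 9 of 31 fell in density and 8 in TE, and none fell in RNA. It also holds short members such as ACTA2, MYL9 and TPM1, and 8 of the 31 were positive in density. The 8 members under 5000 nt had median changes of 0.38 in density and 0.24 in TE. Both lists were drawn up with this pattern known from earlier work on these data, so their counts are a description.

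COL6A3, an alpha chain of collagen VI, went from 700 to 870 FPKM in RNA and from 678 to 260 in density, a TE change of -1.70 ± 0.0097. COL7A1, the collagen of anchoring fibrils, went from 26.6 to 46.6 in RNA and from 20.3 to 8.51 in density, a TE change of -2.06 ± 0.057. TNC (tenascin C) went from 179 to 63.2 in density, with 299 and 340 in RNA. The fibril-forming COL1A2 was at 1691 and 1633 FPKM in RNA and at 2544 and 1156 in density, and fibronectin (FN1) at 1218 and 1496 in RNA and 476 and 220 in density. Among large intracellular proteins, the intermediate filament protein nestin (NES) went from 125 to 35.1 in density, with 139 and 126 in RNA. AHNAK, a very large scaffold protein, went from 95.7 to 29.0 in density, with 304 and 278 in RNA, and PLEC (plectin), a cytoskeletal linker, from 78.2 to 28.2. LRP1, an endocytic receptor, went from 113 to 40.7. In each of these genes the density at 4 h was under that at 2 h by at least 2-fold, whereas their RNA went up in some and down in others.

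Over whole lists the later libraries were higher again. The median density of the 38 matrix genes took the values 136, 84.7, 162 and 188 FPKM over 2, 4, 6 and 19 h, and that of the 31 giant cytoskeletal genes was 78.2, 29.0, 82.6 and 92.6. For 9 long transcripts named for their TE fall or as the lowest of the matrix list, density at 2 h was 2.38 to 3.56 times and at 6 h 2.52 to 8.72 times that at 4 h, values that the choice of genes with low 4 h density favours. For NES the values at 2, 4 and 6 h were 125, 35.1 and 88.4. The low values came from the single Ribo-Seq library of 4 h, and the 4 h time and that library cannot be told apart.

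**Figure D4:**
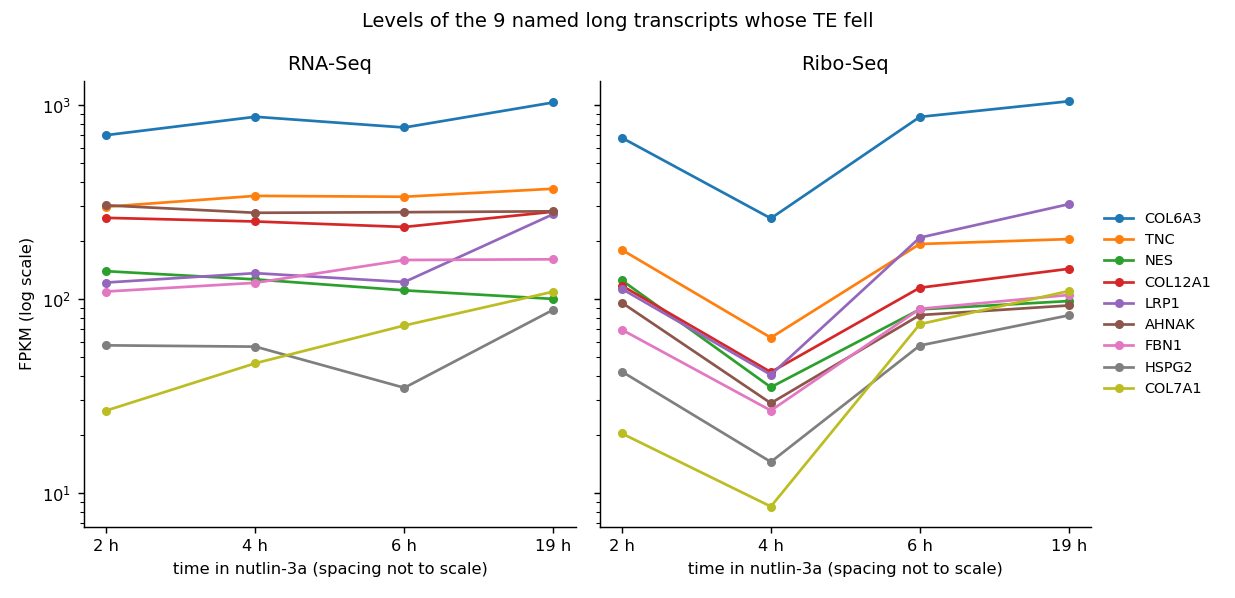
RNA-Seq (left) and Ribo-Seq (right) FPKM on a log axis at 2, 4, 6 and 19 h for 9 named long transcripts, 1 library at each point. In Ribo-Seq all 9 lines dip at 4 h and are higher at 6 h, by 2.52 to 8.72 times, while in RNA-Seq none of the 9 fell 2-fold from 2 h to 4 h.

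The TE change went down with transcript length over all genes, by 0.13 on the log2 scale for each doubling of length, against 0.03 in RNA. Its median was 0.31 in 488 transcripts under 1000 nt and -0.27 in 65 transcripts of 10000 nt or more, of which 10 fell in TE (15.4%). Of the 868 tested transcripts of 5000 nt or more, the 23 of the matrix list had a median TE change of -1.09 and the 23 of the giant cytoskeletal list -0.80, and the 822 on neither list had -0.01, with 10 of them falling. How the lists were chosen favours this contrast. Long transcripts were also split by RNA level. The 43 long transcripts with a mean of at least 100 FPKM in RNA had a median TE change of -0.82, and 25 of them were on those lists. The 18 of them on neither list had -0.55. Long transcripts under 20 FPKM, 436 in number, had 0.00, and transcripts shorter than 5000 nt at 100 FPKM or more, 558 in number, had 0.11. Lengths here are of whole transcripts, and coding length was not analysed.

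**Figure D5:**
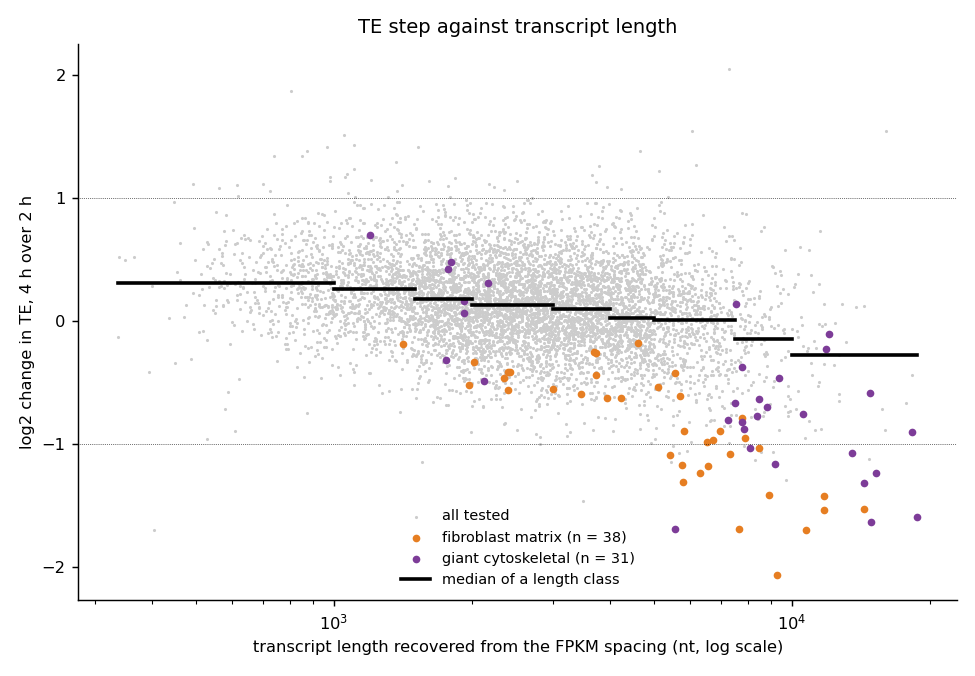
TE change from 2 h to 4 h (y axis, log2) against transcript length (x axis, nt, log scale), with black bars for the median of each length class. The class medians step down from 0.31 under 1000 nt to -0.27 at 10000 nt or more, and the matrix (orange) and giant cytoskeletal (purple) genes of 5000 nt and more lie below most transcripts of their length.

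At the other end of the length scale, the ribosomal protein genes had a higher density at 4 h than at 2 h. Their median density was 653, 816, 447.5 and 309 FPKM at 2, 4, 6 and 19 h, highest in the single 4 h library. Of 78 tested, 76 were positive in density with a median of 0.38, and 77 were positive in RNA with a median of 0.09, the RNA changes all lying under 2-fold. The median TE change was 0.28, beside 0.13 over all genes. RPL34 went from 360 to 485 in density with 192 and 201 in RNA, RPL23 from 260 to 321 and RPS23 from 132 to 178. RPL41, which encodes the shortest ribosomal protein, was the only member past 2-fold, from 1448 to 3213 in density with 1063 and 1088 in RNA. Set against transcripts of like length the group did not stand out, since the 46 ribosomal protein transcripts under 1000 nt had a median TE change of 0.29 and the 442 other transcripts of that length had 0.31. Ribosome biogenesis genes, 79 tested, had medians of -0.05 in RNA and 0.11 in density. One of them, the small box H/ACA protein NOP10, rose in density from 110 to 227, while BRIX1, a factor of large subunit assembly, went from 22.6 to 13.9 FPKM in RNA.

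The 47 genes that rose in TE included 42 on no list. ATXN7, a subunit of the SAGA complex, rose in TE by 2.05 ± 0.061, with 7.93 and 5.74 FPKM in RNA and 86.4 and 259 in density. ARIH1, a ubiquitin ligase, was at 16.8 and 15.7 in RNA and at 98.8 and 269 in density, and ZFHX3, a zinc finger homeobox factor, at 8.92 and 10.2 in RNA and 6.22 and 20.7 in density. At 6 h their densities were 334, 294 and 20.7, so these stayed at or above the 4 h level. HMGN3, a nucleosome-binding protein, went from 20.4 to 49.9 in density and was back at 23.6 at 6 h. ZNF354B, a zinc finger gene and the most abundant Ribo-Seq transcript at 2 h, was outside the filter with 1.64 and 1.39 FPKM in RNA and 16165 and 10987 in density. Together with LGALS1 it held 5.12% of Ribo-Seq reads at 2 h and 3.84% at 4 h, a difference that moves all other log2 densities by -0.02. In ATXN7, ARIH1 and ZNF354B density was far above RNA at both times. Whether all those reads were ribosome footprints of these mRNAs was not tested.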

How the data were processed

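BJ cells were profiled by RNA-Seq on poly(A) RNA and by Ribo-Seq, with 1 library per time. Bowtie was the aligner of the authors, with 1 transcript per protein-coding gene as target (Ensembl release 65, hg19 per the labels). They kept unique hits, so that reads shared by paralogs were lost, and deposited FPKM values. The labels name no sequencing run, although the study describes run effects, so comparisons between times may cross runs. The assay of each table was taken from its name. The methods name coding-sequence reads for Ribo-Seq whereas its columns say total. RNA-Seq values cover 13279 transcripts and Ribo-Seq values 11337.

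Read totals (26.95 M and 24.43 M reads in RNA-Seq and 11.86 M and 14.46 M in Ribo-Seq at 2 h and 4 h), transcript lengths and whole reads were recovered from the FPKM spacing over all columns, a step tested on simulated data, and gave counting SEs (PCR copies were not distinguishable). No values of the untreated column were otherwise used. Log2 changes of 4 h over 2 h were taken at a floor of 1 FPKM for the 6670 genes with at least 5 FPKM in each assay. A call was a 2-fold change, without a test. Of the 4588 genes left out, 263 missed the filter in RNA-Seq only, 1323 in Ribo-Seq only and 3002 in both.

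Gene lists and members were chosen with earlier results of these data known. Named genes were, among calls exceeding 3 counting SEs, the 15 largest rises and falls in RNA and the 8 largest in density and in TE, the 3 extreme members of each list in each direction, and a fixed set (CDKN1A, MDM2 and others). Other genes were named after their values were seen. Promoters were matched by symbol, 469 of the tested genes by an older one. Of 10 alternative settings, those with effects are given below. Python 3.11.15, numpy 2.4.6, pandas 2.3.3 and matplotlib 3.10.9 were used. Some results are not reported here.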

Additional observations from a re-analysis of the deposited data

Results flagged for a closer look

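Genes outside the comparison also passed 2-fold in RNA. Among the 1323 transcripts that had at least 5 FPKM in RNA-Seq but missed the filter in Ribo-Seq, 10 rose and 13 fell (0.756% and 0.983%). Those that rose included ACER2, a ceramidase, from 0.564 to 6.25 FPKM, SPATA18, a mitochondrial quality gene, from 2.83 to 8.58, PIDD, a death domain protein, from 5.10 to 12.7, and the ubiquitin ligase subunit FBXW7, from 6.28 to 13.1. Those that fell included the immediate-early genes FOSB, from 5.76 to 0.316 FPKM, and KLF4, from 7.32 to 2.88, and the phosphatase CDC25A, from 7.26 to 2.22. Among the 46 transcripts listed for RNA-Seq alone at that level, 3 rose and 3 fell. IFNE, an interferon, went from 1.87 to 7.67 FPKM, the chemokine IL8 from 4.38 to 12.03 and the metallothionein pseudogene MT1JP from 10.7 to 22.1. FAM111B, E2F8 and EXO1, which act in or with DNA replication and repair, went from 11.3 to 2.68, from 6.00 to 1.86 and from 8.35 to 3.56 FPKM.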

How the results depend on the processing

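No paired analysis was possible because each group held 1 library, and for the same reason no library could be left out. No direction of a list median or named gene turned. Of 402 values of named genes under 7 settings, 393 stayed past 2-fold, and the other 9 came with a floor of 5 FPKM. These genes were named for having the largest changes, a choice that favours this count. Counts of rises and falls in RNA, given in that order here and below, were 88 and 113 without a filter, 22 and 19 at 20 FPKM or more, 141 and 255 at 1.5-fold, and 169 and 288 with the sliding limit of local SDs that the study's methods use. In density they were 212 and 183, 48 and 42, 677 and 420, and 322 and 190 under the same settings, with 68 falls at a floor of 5 FPKM. In TE they were 134 and 80 without a filter, 612 and 197 at 1.5-fold, 490 and 147 with the sliding limit, and 26 and 64 after centring, with 16 rises at 20 FPKM or more and 22 falls with the length trend removed. The median RNA change of the arrest list was 0.69 with a pseudocount, 0.59 without a filter and 0.39 at 20 FPKM or more, that of repair 0.32 without a filter, and that of G1/S -0.44 at 20 FPKM or more. Centred and length-corrected medians were 0.15 and 0.086 for ribosomal protein TE, -0.75 and -0.50 for matrix density, -0.97 and -0.65 for matrix TE, -0.78 and -0.49 for giant cytoskeletal density and -0.80 and -0.47 for giant cytoskeletal TE. Matrix TE was -0.76 at a floor of 5 FPKM and -0.63 without a filter. The causes of these shifts were not tested, except that each filter sets how many genes are counted. Of the genes past 2-fold, 15 risers and 23 fallers in RNA were under 5 FPKM at their lower time.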

Other observations

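Of the 66 genes that fell in RNA, 42 were on no list, and several of them are known from Notch, BMP or TGF-beta signalling. They were chosen after their values were seen, so no count is drawn from them. JAG1, a Notch ligand, went from 13.6 to 5.72 FPKM in RNA and from 10.5 to 3.42 in density, beside the fall of HES1. The inhibitors of differentiation ID1 and ID2, which are on the immediate-early list, and ID4 went from 413 to 199.5, from 77.8 to 30.5 and from 17.4 to 6.27 FPKM in RNA. SMAD7, a feedback inhibitor of TGF-beta signalling, went from 53.3 to 22.2, and SNAI2 and SNAI1, repressors of epithelial genes, from 68.8 to 29.9 and from 7.97 to 3.88. Among the risers on no list, ESM1, a secreted proteoglycan, went from 16.6 to 53.8 FPKM in RNA and from 26.2 to 95.5 in density. ITGA2, an integrin subunit that binds collagen, went from 36.6 to 108 in RNA and from 23.7 to 34.7 in density, so its TE fell by 1.01 while its RNA rose.

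Histone mRNAs of the replication-dependent kind lack a poly(A) tail. Of the transcripts listed for Ribo-Seq alone, 12 histone transcripts had at least 5 FPKM, and their density changed by between -0.31 and 0.60 on the log2 scale with a median of 0.11, none past 2-fold. The linker histone HIST1H1B was at 1443 and 1430 FPKM.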
